A study of Mus musculus with 2 samples.

Results

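IgM plasma cells were examined in the spleens of C57BL/6 mice 8 days after infection with lymphocytic choriomeningitis virus clone 13 (LCMV-cl13), a strain that establishes chronic infection. They were selected on measured values, as the single-cell barcodes with 5 or more unique molecular identifiers (UMIs, each standing for 1 captured mRNA molecule) of *Mzb1*, 10 or more of *Jchain*, none of *Cd3e* or *Lyz2*, and more UMIs of *Ighm* than of *Igha* and than of *Ighg1*, *Ighg2b*, *Ighg2c* and *Ighg3* together. This gave 187 of 23397 barcodes, 122 of 14821 in PEP-WT and 65 of 8576 in PEP-619WW. Barcodes that passed the same *Mzb1*, *Jchain*, *Cd3e* and *Lyz2* conditions but had more *Igha* or summed *Ighg* than *Ighm* served as class-switched plasma cells, and numbered 639 in PEP-WT and 562 in PEP-619WW.

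PEP is the phosphatase encoded by *Ptpn22*, which restrains antigen receptor signaling in lymphocytes. PEP-WT mice carry the wild type allele, and PEP-619WW mice carry tryptophan in place of arginine at residue 619 on both copies, made by CRISPR/Cas9 on the C57BL/6 background as the mouse counterpart of a human allele linked to autoimmunity. All animals were infected. Spleens of 4 to 5 age and sex matched mice per genotype were pooled (mice of the study were 6 to 12 weeks old), sorted for live CD45+ cells and sequenced as 1 library per genotype on the 10x Genomics 3′ platform. With 1 pooled library per genotype there is no replicate error. Barcodes are not replicates, so no test between genotypes or classes is given, and every interval below is a 95% interval (exact, or by the Newcombe method for differences of shares) that covers counting error only.

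Plasma cells are the antibody-secreting end stage of B cells. Xbp1, Blimp-1 (*Prdm1*) and Irf4 drive the transition, while the B cell program led by Pax5 is shut off and the endoplasmic reticulum (ER) is expanded to fold and export antibody. IgM is the first class made and is secreted as a polymer linked by the J chain (*Jchain*), and Mzb1 is an ER co-chaperone that assists its assembly. Class switching replaces the mu constant region with a gamma, epsilon or alpha one.

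The sample records name liver as tissue, Jurkat (a human T cell line) as cell line and tumor-infiltrating cells as cell type, whereas the protocol and the study describe mouse spleen. Each genotype has another deposited table, whose barcode number equals the cell number that the study states and which holds 0 IgM plasma barcodes, so the members come from tables whose place in the study is not stated. In the IgM plasma barcodes 5 of 7 hepatocyte markers, *Alb*, *Apoa1*, *Ttr*, *Fgb* and *Serpina1c*, had 0 UMIs in both libraries. The other 2 were present, *Trf* (transferrin) with 62 and 51 UMIs and *Apoa2* with 14 and 7, so that the list summed to 52.8 and 78.9 UMIs per 1000000 non-immunoglobulin UMIs (CPM), against 74.7 and 97.2 in class-switched barcodes, with 20 and 5 UMIs in all B cell barcodes. The libraries held 77916082 and 56745578 UMIs, with a median of 2832 and 3293 per barcode. They shared 39 barcode sequences, none of which was an IgM plasma member. A T cell list of 12 genes summed to 66.7 CPM in the members of both libraries, against 8818 and 8919 in T cell barcodes (*Cd3e* and *Cd3g* present, *Cd79a* and *Lyz2* absent). Of 8 plasmacytoid dendritic cell genes *Siglech* and *Klk1* were at 0 in both, and the list stood at 1795 and 1469 CPM through *Bst2*, *Ly6d* and *Tcf4*, against 2413 and 1873 in B cell barcodes. The *Cd3e* and *Lyz2* conditions removed 565 of 1328 barcodes with the *Mzb1* and *Jchain* levels in PEP-WT and 605 of 1232 in PEP-619WW. A UMI of the T cell list remained in 27.0% and 36.9% of members, and 1 of a 12-gene monocyte and macrophage list in 89.3% and 89.2%.

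IgM plasma members were rich in RNA. Their median was 11962.5 UMIs in PEP-WT (range 2055 to 52562) and 14018 in PEP-619WW (range 1122 to 60825), against 2725 and 3370.5 in B cell barcodes (2 or more UMIs of *Ms4a1* and of *Cd79a*, no *Jchain*). The genes of the rule define the members and are given as a description. *Mzb1* ran from 7 to 440 UMIs per member with a median of 74 in PEP-WT and from 5 to 289 with a median of 58 in PEP-619WW. *Jchain* had medians of 111 and 124 UMIs and reached 695 and 607. *Ighm* (chr12:113418558-113422730, minus strand, mm10) had a median of 607.5 UMIs in PEP-WT (3 to 1838) and 880 in PEP-619WW (6 to 3358), and both ranges start near 0. At the edge of the rule, 13 PEP-WT members had 10 to 19 *Jchain* UMIs and a median of 2.22% immunoglobulin UMIs, and the 25 barcodes just outside, with 5 to 9, had a median of 1.83%. In PEP-619WW the 9 members just inside had a median of 11.8% and the 10 barcodes just outside 1.74%.

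Plasma cell markers that the rule did not use were more frequent in members than in B cell barcodes. *Xbp1* was detected in 116 of 122 PEP-WT members (95.1%) and 62 of 65 PEP-619WW members (95.4%), against 12.8% and 12.6% of B cell barcodes. *Derl3*, which acts in ER-associated degradation, was detected in 82.8% and 78.5%, against 2.06% and 4.05%. *Sdc1*, the surface syndecan used to identify plasma cells, was detected in 58.2% and 66.2%, against 0.392% and 0.869%. *Irf4* was found in 61 of 122 and 32 of 65 members and *Prdm1* in 43.4% and 64.6%, against at most 13.2% and 1.45% of B cell barcodes. These shares were not matched for depth, and the B cell barcodes were shallower. With every barcode thinned to 5000 UMIs (113 and 55 members, and 465 of 3059 and 208 of 1036 B cell barcodes, were deep enough), *Xbp1* was detected in 89.4% and 100% of members against 15.9% and 11.1% of B cell barcodes. At this depth *Irf4* was found in 30.1% and 30.9% of members against 13.3% and 15.9%, *Prdm1* in 21.2% and 38.2% against 0.860% and 3.37%, and *Sdc1* in 29.2% and 43.6% against 0.215% and 0.962%.

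A minority of members went against the label. Immunoglobulin transcripts made up less than 5% of UMIs in 18 of 122 PEP-WT members (14.8%) and 5 of 65 PEP-619WW members (7.69%), and less than 10% in 27 (22.1%) and 9 (13.8%). The 18 PEP-WT members had a median of 20458.5 UMIs, 59 *Ighm*, 22 *Mzb1*, 21 *Jchain* and 2 *Xbp1* UMIs. They carried 2921 CPM of a 24-gene B cell list, 1300 of a class switching and germinal center list and 10723 of a G2 and M phase list. The members with 30% or more immunoglobulin carried 913, 90.9 and 1619. The 5 such members of PEP-619WW stood alike, at 4311, 1349 and 11660, against 651, 41.0 and 2855. The class-switched gate held such barcodes as well, 36 of 639 and 16 of 562. Several results below are therefore given also for the 95 PEP-WT and 56 PEP-619WW members with 10% or more immunoglobulin, a limit chosen after the data were seen. Where members are then set against class-switched barcodes, the same limit was applied to the class-switched barcodes too.

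**Figure D1:**
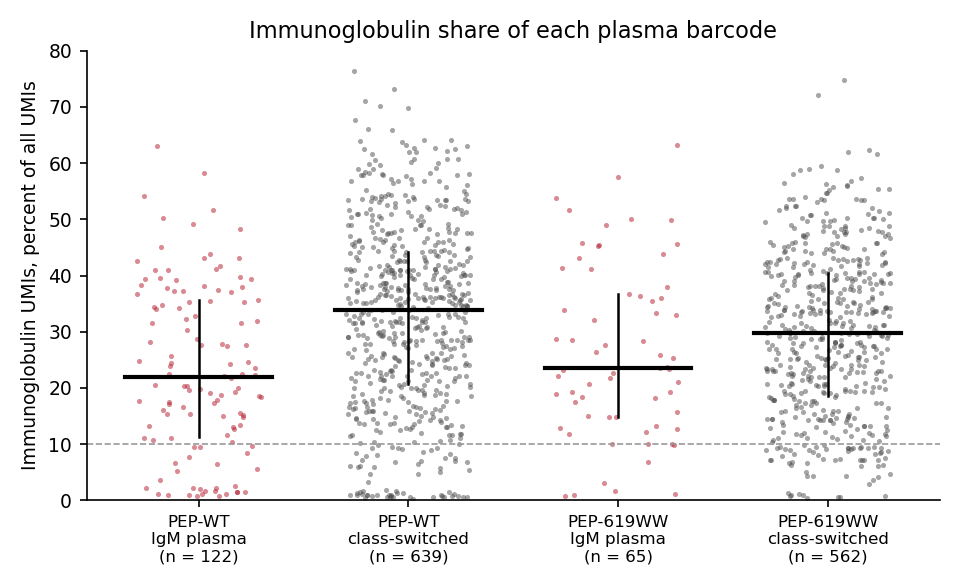
Immunoglobulin UMIs as percent of all UMIs (vertical axis) for each IgM (red) and class-switched (gray) plasma barcode of both genotypes. Bars are medians, thin lines quartiles, and the dashed line marks 10%. The medians of IgM members, 21.9% and 23.6%, sit below those of class-switched barcodes, 33.8% and 29.8%, and a cluster of barcodes lies near 0.

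The first comparison asked how common IgM plasma cells were in each genotype. They made up 0.823% of all PEP-WT barcodes (0.684 to 0.982), and in PEP-619WW 0.758% (0.585 to 0.965). The interval of the difference, -0.0652 percentage points, ran from -0.293 to 0.181, so a difference was not detectable at this depth, and with 10% or more immunoglobulin it was 0.012 points. Class-switched plasma cells were 4.31% (3.99 to 4.65) and 6.55% (6.04 to 7.10), and this difference of 2.24 points (1.63 to 2.87) exceeded counting error. IgM members were accordingly 16.0% of plasma barcodes in PEP-WT (122 of 761, interval 13.5 to 18.8) and 10.4% in PEP-619WW (65 of 627, 8.09 to 13), a difference of -5.66 points (-9.18 to -2.08). It lay between -8.30 and -4.09 points over all gates tried, the smallest being that for barcodes with 10% or more immunoglobulin. The spread between mice is unknown and was not tested.

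**Figure D2:**
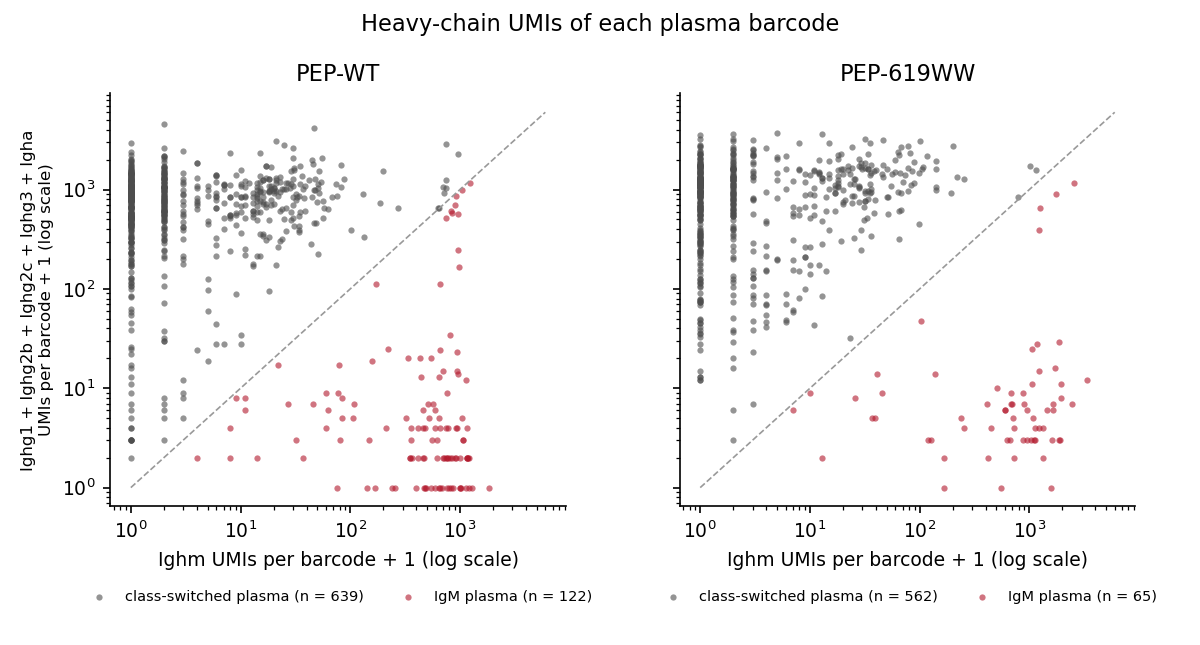
Each point is a plasma barcode, with *Ighm* UMIs on the horizontal and summed *Ighg* and *Igha* UMIs on the vertical axis (both plus 1, log scales). The dashed line marks equal values. The median IgM member (red) has 607.5 (PEP-WT) or 880 (PEP-619WW) *Ighm* UMIs and 3 or 4 *Ighg* UMIs, and 12 PEP-WT and 4 PEP-619WW members have 100 or more *Ighg* UMIs.

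Heavy chain classes other than mu gave a minor share of heavy chain UMIs in the members. *Ighm* gave 90.7% of heavy chain UMIs over the PEP-WT members and 94.5% over the PEP-619WW members. The rule fixes that *Ighm* exceeds *Igha* and the sum of *Ighg* in each member, but does not use *Ighe*, and the lowest share of *Ighm* in a member was 3.94% in PEP-WT and 52.9% in PEP-619WW. *Ighg2c*, the gamma class that leads the antiviral response of C57BL/6 mice, gave 8.58% in PEP-WT and 3.77% in PEP-619WW, with a UMI in 90 of 122 and 57 of 65 members. The median was 1 and 2 *Ighg2c* UMIs per member, and also 1 and 2 in T cell barcodes. A single UMI is therefore not above the level in cells of another type. Among class-switched barcodes *Ighg2c* gave 73.0% and 70.0%, followed by *Ighg2b* at 17.1% and 17.9%. Gamma classes are close in sequence, so the counts of each are uncertain. Members with 100 or more *Ighg* UMIs numbered 12 of 122 (9.84%, 5.19 to 16.6) and 4 of 65 (6.15%, 1.70 to 15), and whether these are doublets was not tested. Conversely, 14 of 639 and 15 of 562 class-switched barcodes had 100 or more *Ighm* UMIs. *Ighd*, the delta chain of naive B cells, had 69 UMIs over the PEP-WT members (28 barcodes) and 8 over the PEP-619WW members (7 barcodes). *Ighe* had 192 UMIs in PEP-WT, of which 188 were in 1 barcode, and 1 UMI in PEP-619WW. *Ighg3* had 214 UMIs in PEP-WT, 159 of them in 1 barcode, and 918 in PEP-619WW, 890 of them in 1 barcode.

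Immunoglobulin transcripts held a smaller share of summed UMIs in IgM than in class-switched barcodes. The per-barcode quartiles of the classes overlapped, at 11.3 to 35.6% against 20.7 to 44.1% in PEP-WT and 14.8 to 36.7% against 18.7 to 40.5% in PEP-619WW. Barcodes under 10% immunoglobulin were 22.1% of members against 9.86% of class-switched barcodes in PEP-WT, and 13.8% against 11.0% in PEP-619WW. Summed over members, immunoglobulin genes held 19.2% of UMIs in PEP-WT and 24.5% in PEP-619WW, against 29.7% and 28.5% in class-switched barcodes and 1.67% and 1.76% in B cell barcodes. The difference between genotypes was 5.31 points in IgM members, where the per-barcode quartiles overlapped (11.3 to 35.6% in PEP-WT), and the PEP-WT sum holds more of the members under 10%. Lambda exceeded kappa light chain in 13 of 122 PEP-WT members (10.7%) and 7 of 65 PEP-619WW members (10.8%), a difference of 0.113 points (-8.54 to 10.9). In class-switched barcodes lambda led in 5.16% and 3.91%. IgM members exceeded these by 5.49 points (0.729 to 12.4) in PEP-WT and 6.85 points (1.07 to 16.8) in PEP-619WW.

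The second comparison set IgM against class-switched plasma cells within each library, where preparation was shared. Levels are CPM as above, except that immunoglobulin genes were scaled to 1000000 of all UMIs. The rule fixes the difference in *Ighm*, *Ighg* and *Igha*, and the other genes were measured in barcodes that it selected. A gene was called at a 2-fold or greater difference, among genes with 50 or more UMIs in both classes together. In PEP-WT 265 of 7812 genes were called (3.39%), 73 higher in IgM (0.934%) and 192 lower (2.46%). In PEP-619WW 519 of 7783 were called (6.67%), 155 higher (1.99%) and 364 lower (4.68%). The PEP-619WW members held fewer UMIs in sum, 973239 against 1780300, so counting error was larger there. Of genes simulated without a difference, 0.761% were called in PEP-WT and 2.69% in PEP-619WW. The 2 numbers of calls therefore do not compare the genotypes. Among 7510 genes measured in both libraries, 18 were higher and 70 lower in both. With 100 or more UMIs, and V segments set aside, 7 genes were higher in both, *Ighm* (by the rule), *Gm8369*, *Fcmr*, *Lrmp*, *Ctla4*, *Btla* and *Selenop*, and 24 were lower in both.

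*Slpi* (chr2:164354070-164389095, mm10), which encodes a secreted inhibitor of leukocyte serine proteases, was lower in IgM members. Its level was 1428 CPM (1367 to 1491) in PEP-WT IgM members and 7225 (7156 to 7294) in class-switched barcodes. In PEP-619WW it was 1946 (1846 to 2049) and 5196 (5140 to 5254). The median member had 1 UMI in both libraries against 15 and 10 in the class-switched barcodes, and the ranges overlapped, since single members reached 405 and 565. The log2 ratio was -2.34 and -1.42, and without the highest barcode of each class -2.63 and -2.04, since 1 member held 20% of the *Slpi* UMIs in PEP-WT and 1 held 40% in PEP-619WW. After thinning, *Slpi* was detected in 43.4% of PEP-WT members and 72.7% of class-switched barcodes, a difference of -29.3 points (-38.7 to -19.4). In PEP-619WW the shares were 38.2% and 70.5%, a difference of -32.3 points (-44.6 to -18.4).

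The paired genes *Tmem176a* and *Tmem176b*, which encode membrane channels of immune cells, were lower in IgM members as well. *Tmem176a* was at 40.3 and 54.4 CPM against 153 and 142, and *Tmem176b* at 29.2 and 50.3 against 123 and 128. The pair overlap on opposite strands, and whether reads were shared between them was not tested. *S100a6*, a calcium-binding protein, was at 13.2 (7.95 to 20.6) against 57.1 in PEP-WT and at 27.2 (16.6 to 42.0) against 58.3 in PEP-619WW. *Id2*, an inhibitor of E protein transcription factors, rested on 12 and 5 UMIs in the members, with log2 ratios of -1.49 (-2.48 to -0.64) and -1.38 (-3.04 to -0.12). *Ccl5*, a chemokine of T and NK cells, was at 61.2 and 31.3 against 174 and 112, and 80% of its PEP-WT member UMIs came from 1 barcode. Its PEP-WT log2 ratio of -1.51 was -3.46 without the highest barcode of each class. It was -0.92 over the barcodes of both classes with at least 10% immunoglobulin. The summed list of T cell genes was also lower in members, at 66.7 against 137 CPM in PEP-WT and 66.7 against 88.5 in PEP-619WW. So were those of monocytes and macrophages (299 against 410 and 297 against 382), neutrophils (81.3 against 133 and 143 against 205) and erythroid cells (838 against 3243 and 23.1 against 153), with 53.8% of the neutrophil and 82.8% of the erythroid UMIs of PEP-WT members in 1 barcode. The list of 7 NK cell genes was lower in PEP-WT members, at 13.9 against 38.3 CPM, and not in PEP-619WW members, at 21.8 against 17.8, on 20 and 16 UMIs. Its 1 measured gene in each library was *Gzma* at -2.02 in PEP-WT and *Prf1* at 1.17 in PEP-619WW. *Retnlg*, a neutrophil gene with 2 and 6 member UMIs, and the globins *Hbb-bs*, *Hbb-bt* and *Hba-a1* were among the 24 genes lower in both. The list levels are sums, and the share of barcodes with a UMI was not lower in members for every list. For T cell genes it was 27.0% against 23.2% and 36.9% against 27.4%. For monocyte and macrophage genes it was 89.3% against 87.9% and 89.2% against 89.0%. Neutrophil genes stood at 32.0% against 38.0% and 73.8% against 72.2%, and erythroid genes at 59.8% against 67.3% and 21.5% against 22.4%. The part of other cells' transcripts in the lower levels was not tested.

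*Txndc5* (chr13:38500079-38528824, mm10), an ER disulfide isomerase, was higher in IgM members. Its level was 1693 CPM (1626 to 1761) against 869 (845 to 893) in PEP-WT, a log2 ratio of 0.96. In PEP-619WW it was 2350 (2240 to 2463) against 780 (758 to 803), a log2 ratio of 1.59. The median was 16 and 24 UMIs per member against 5 in both class-switched sets. The log2 ratios were 1.28 and 1.70 with 10% or more immunoglobulin. Of 21 other ER chaperone and folding genes 0 were called in either library, and their medians were -0.18 and -0.04, beside all-gene medians of 0.01 and 0.00. Of all genes 3.39% and 6.67% were called. *Hspa5*, the main ER chaperone BiP, was at 1846 and 1603 CPM against 2142 and 2086, with 28% of the PEP-WT member UMIs in 1 barcode. Its medians went the other way, at 10 and 16 UMIs per member against 9 in both class-switched sets.

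*Tnfrsf17* (chr16:11313812-11320074, mm10) encodes BCMA, the receptor for the plasma cell survival factors APRIL and BAFF. It was at 58.4 CPM (46.6 to 72.3) in PEP-WT members against 29.5 (25.2 to 34.3) in class-switched barcodes, and at 44.9 (30.9 to 63.1) against 15.3 (12.4 to 18.7) in PEP-619WW. The log2 ratios were 0.99 and 1.55, and 1.40 and 1.63 with 10% or more immunoglobulin. After thinning, 22 of 113 members (19.5%) and 44 of 589 class-switched barcodes (7.47%) of PEP-WT had a UMI, a difference of 12 points (5.30 to 20.5). In PEP-619WW 10 of 55 (18.2%) and 27 of 471 (5.73%) had one, a difference of 12.4 points (4.08 to 24.7). Without thinning it was found in 1 of 3059 and 2 of 1036 B cell barcodes.

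*Fcmr*, which encodes the receptor for the Fc part of IgM, was at 66.0 CPM (53.4 to 80.7) against 29.5 (25.2 to 34.3) in PEP-WT and at 66.7 (49.3 to 88.1) against 20.7 (17.2 to 24.6) in PEP-619WW. The log2 ratios were 1.16 (0.79 to 1.53) and 1.69 (1.18 to 2.18). It was detected in 31.1% and 33.8% of members against 14.7% and 11.2% of class-switched, 66.4% and 66.5% of B cell and 1.15% and 1.82% of T cell barcodes without thinning. With thinning the difference was 7.27 points (1.11 to 15.4) in PEP-WT and 3.36 points (-2.35 to 14.0) in PEP-619WW, so in PEP-619WW it was not detectable at the lower depth. *Btla*, an inhibitory receptor of lymphocytes, was at 31.3 and 55.8 CPM against 14.4 and 22.8. *Ctla4*, an inhibitory receptor best known from T cells, was at 36.8 and 107 against 16.8 and 47.0. *Selenop*, a selenium transport protein, was at 24.3 and 40.8 against 11.8 and 13.6. *Lrmp*, an ER membrane protein of lymphoid cells, had log2 ratios of 1.15 and 1.34, but 0.40 in PEP-619WW with 10% or more immunoglobulin.

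**Figure D3:**
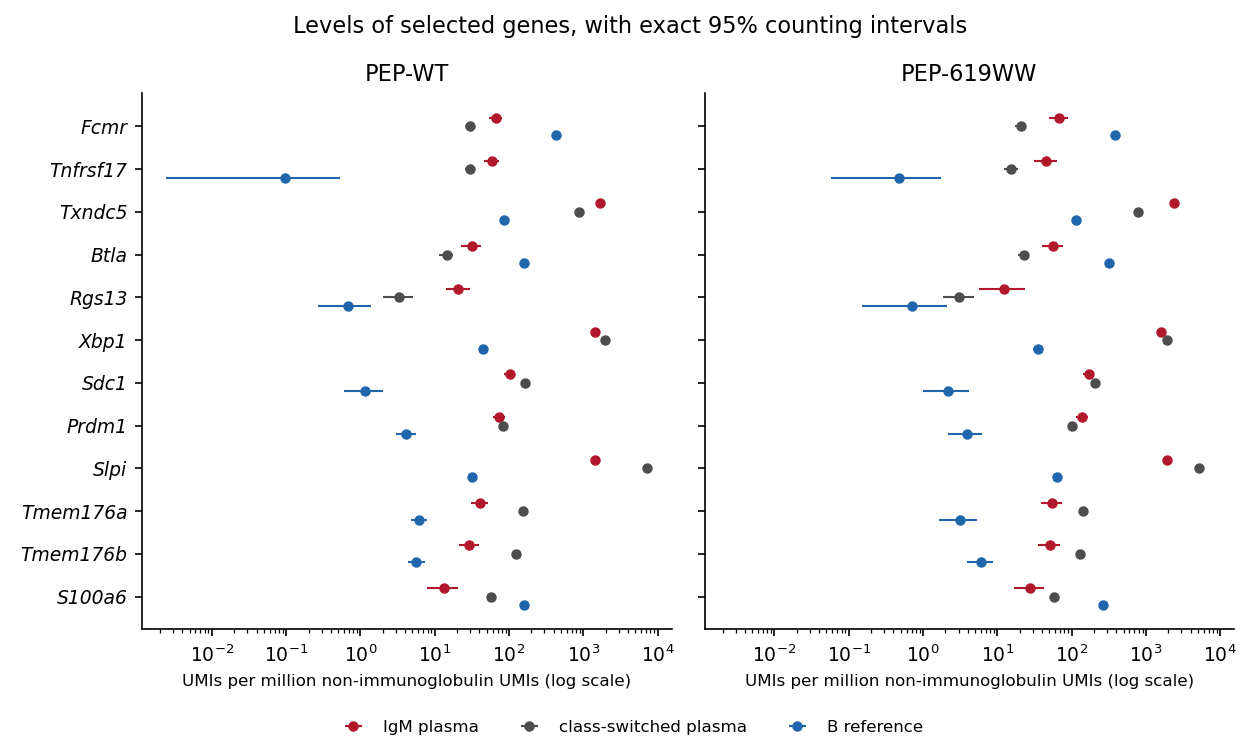
Levels of 12 genes in CPM (log scale) in IgM plasma (red), class-switched plasma (gray) and B cell barcodes (blue, B reference), with exact 95% counting intervals and a panel for each genotype. *Fcmr*, *Tnfrsf17* and *Txndc5* sit higher and *Slpi*, *Tmem176a* and *Tmem176b* lower in IgM than in class-switched plasma in both panels, and *Xbp1*, *Sdc1* and *Prdm1* sit far above B cell barcodes.

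Most plasma cell identity genes were not called between the classes. Of 21 plasma cell identity genes 0 were called in PEP-WT, with a median log2 ratio of -0.16, and 2 were called higher in PEP-619WW (*Txndc5* and *Tnfrsf17*), with a median of 0.13. Of all genes 0.934% were called higher and 2.46% lower in PEP-WT, and 1.99% and 4.68% in PEP-619WW. *Xbp1* was at 1425 CPM (1364 to 1488) against 1964 in PEP-WT and 1573 (1483 to 1666) against 1892 in PEP-619WW. *Sdc1* was at 102 against 162 and 170 against 206, and after thinning it was found in 29.2% of PEP-WT members against 41.3% (difference -12.1 points, -20.6 to -2.28) and in 43.6% against 47.6% in PEP-619WW (-3.92 points, -17.0 to 9.91). *Prdm1* was at 73.7 against 82.2 CPM and 139 against 101. The translocon and glycosylation list, which covers protein entry into the ER, had medians of -0.19 and -0.03 with 0 of 29 genes called, and 23 oxidative phosphorylation genes had medians of 0.00 and -0.04. Of 13 measured unfolded protein response genes 1 was called lower in each library, beside 2.46% and 4.68% of all genes. It was *Chac1*, a glutathione-degrading enzyme of this response, with log2 ratios of -1.74 and -1.32 on 5 and 4 member UMIs.

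B cell genes were higher in IgM members as a list, and part of this came from the members with little immunoglobulin. Of the B cell identity list 6 of 23 measured genes were called higher and 0 lower in PEP-WT (median 0.52), and 4 higher and 1 lower of 19 in PEP-619WW (median 0.50), where of all genes 0.934% were called higher in PEP-WT, and 1.99% higher and 4.68% lower in PEP-619WW. *Blk*, a Src family kinase of B cells, was called in both, with log2 ratios of 1.18 and 1.49, as was *Spib*, a B lineage transcription factor, with 1.04 and 1.16. *Pax5*, which maintains B cell identity, was at 46.6 against 34.0 CPM in PEP-WT and 58.5 against 22.4 in PEP-619WW. With 10% or more immunoglobulin in the barcodes of both classes, *Pax5* had log2 ratios of -0.11 and -0.55. Those of *Spib* were 0.67 and -0.19, on 9 and 4 member UMIs, and those of *Blk* 1.16 and 0.94. The list then had medians of 0.39 over 18 measured genes and -0.21 over 16. *Ms4a1*, which encodes CD20, was found in 31.9% of thinned PEP-WT members against 20.9% (difference 11.0 points, 2.37 to 20.6) and in 27.3% against 17.8% in PEP-619WW (9.44 points, -1.22 to 22.8). Its log2 ratio in PEP-619WW was 0.65 over all barcodes of both classes and -0.21 over those with at least 10% immunoglobulin.

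The class switching and germinal center list followed the same members. Its median was 0.70 in PEP-WT (0 of 14 called) and 0.40 in PEP-619WW (4 of 13 called higher, beside 1.99% of all genes), and with 10% or more immunoglobulin 0.12 and 0.26. *Rgs13*, a signaling regulator of germinal center B cells, had 30 and 9 UMIs in members, 70% and 44% of them in 1 barcode, and 0 with 10% or more immunoglobulin. In both libraries the 10 MHC class II genes had positive medians, 0.27 and 0.38, with 0 and 1 called, beside 3.39% and 6.67% of all genes.

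Of 20 measured homing genes 3 were called lower in PEP-WT and 4 in PEP-619WW, where 2.46% and 4.68% of all genes were, and the medians were -0.31 and -0.34 with 6 and 5 genes above 0. *Ccr10*, a chemokine receptor of IgA plasma cells that home to mucosa, had 5 and 1 member UMIs, with log2 ratios of -1.48 and -2.73, and was called in both, as was *S100a6*. *Itgb7*, the mucosal integrin beta 7, was called in PEP-WT at -1.34, and *Klf2* and *Klf3*, regulators of lymphocyte trafficking, in PEP-619WW at -1.29 and -1.36, *Klf3* on 3 member UMIs. The interferon-stimulated list had medians of -0.04 (0 of 30 called) and 0.25 (1 of 25 called). Of 8 genes for Ptpn22 and its partners 0 and 2 were called, beside 3.39% and 6.67% of all genes, the latter *Fyn* (1.45) and *Ptpn6* (1.34), kinase and phosphatase of antigen receptor signaling.

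**Figure D4:**
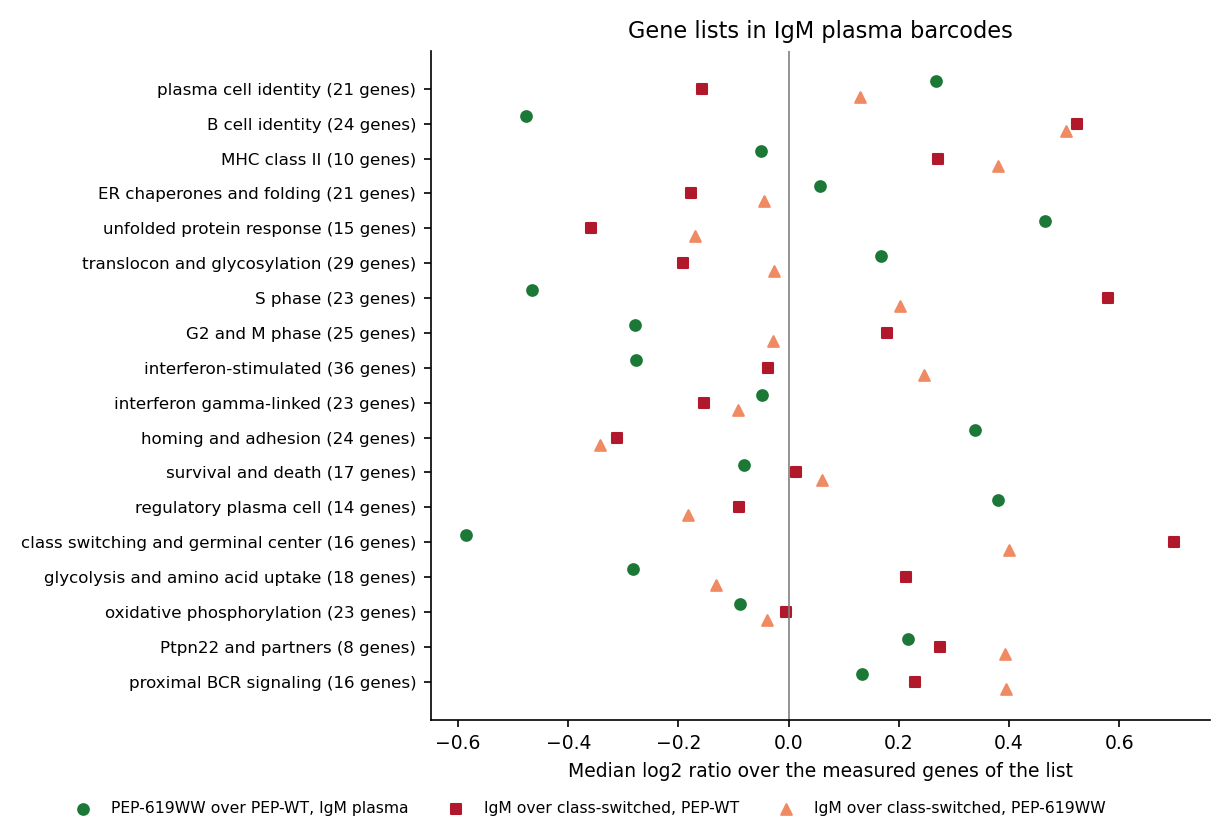
Median log2 ratio (horizontal axis) over the measured genes of each of 18 gene lists, for PEP-619WW over PEP-WT in IgM plasma (green circles) and for IgM over class-switched plasma in PEP-WT (red squares) and PEP-619WW (orange triangles). B cell identity and the class switching and germinal center list lie right of 0 for both IgM comparisons and left of 0 for the genotype comparison, and the ER chaperone list lies within 0.2 of 0 in all 3.

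The third comparison asked which genes differed between PEP-619WW and PEP-WT within IgM plasma cells. It shares its barcodes with the IgM against class-switched comparisons. Of 4560 genes measured 155 were called (3.4%), 69 higher in PEP-619WW (1.51%) and 86 lower (1.89%), and the all-gene median was -0.02. The number called was 74 among members with 10% or more immunoglobulin, and 201 when each gene lost its highest barcode in each library. *Ptpn22* itself was detected in 43 of 122 and 26 of 65 members, at 38.2 CPM (28.8 to 49.7) and 55.8 (40.0 to 75.7), a log2 ratio of 0.55 (-0.07 to 1.16). The altered residue cannot be read from these gene counts.

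*Apoe*, a lipid carrier of macrophages, was at 168 CPM (148 to 191) in PEP-WT members and 1254 (1175 to 1338) in PEP-619WW, a log2 ratio of 2.90 (2.69 to 3.11). The median member had 0 and 1 UMIs, the upper quartile was 1 and 2, and the highest member had 46 and 250, the latter 27% of the sum. Without the highest barcodes the ratio was 2.76. In class-switched barcodes *Apoe* was at 96.2 and 129, and in B cell barcodes at 459 and 712. The monocyte and macrophage list was at 299 and 297 CPM in members, which were selected for 0 *Lyz2*, and the part of macrophage RNA in *Apoe* was not tested. *Mt1*, a metallothionein, was at 84.8 and 273, and in class-switched barcodes at 103 and 436. *Prg2*, best known as an eosinophil granule protein, was at 69.5 and 305, with 43% from 1 PEP-619WW barcode. *Ctla4* was at 36.8 and 107, with a log2 ratio of 1.55 (1.02 to 2.08), and *Gm8369* at 126 and 484, with 42% from 1 barcode. *Ighg3* and *Lztfl1* were called at 2.97 and 1.79, but at -0.10 and 0.48 without the highest barcode.

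Lower in PEP-619WW was *Serpina3f*, a serine protease inhibitor, at 84.8 CPM in PEP-WT members and 17.7 (9.42 to 30.2) in PEP-619WW. The log2 ratio was -2.26 (-3.21 to -1.43), and -2.68 without the highest barcodes. Its class-switched levels were 15.8 and 19.4, below the PEP-WT members. Its locus holds near copies, so its counts are uncertain. *Cd72*, a B cell inhibitory receptor, was at 60.5 (48.4 to 74.6) and 13.6 (6.52 to 25), a log2 ratio of -2.15 on 10 member UMIs in PEP-619WW, and *Ighd* at 38.8 and 8.22 per 1000000 of all UMIs. The nucleolar chaperone *Npm1* was at 1568 (1504 to 1634) and 710 (651 to 774), and the cytosolic chaperone *Hsp90aa1* at 685 and 309. With 10% or more immunoglobulin their log2 ratios moved from -1.14 and -1.15 to -0.31 and -0.48, and neither was called. *Hbb-bs*, *Hbb-bt* and *Hba-a1*, globin genes, were at -6.18, -4.48 and -3.70, and at -4.07, -3.08 and -0.95 without the highest barcodes, so that the call for *Hba-a1* was lost. They came after *Ighe* at -6.71, which rests on 1 PEP-WT barcode. The erythroid list was at 838 and 23.1 CPM in members, 83% of the former in 1 barcode, and at 4537 and 160 in B cell barcodes, so it differed between the libraries in every class.

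Most list genes were not called between genotypes in the members, and B cell and S phase genes lay mostly below 0. The plasma cell identity median was 0.27 with 0 of 21 called, and the ER chaperone median 0.06 with 0 of 21 called. The unfolded protein response median was 0.46, with 10 of 12 genes above 0 and 1 called higher, *Ddit3*, a stress transcription factor, at 16.0 and 39.5 CPM. Of all genes the middle 50% lay between -0.28 and 0.26. *Prdm1* was at 73.7 (60.3 to 89.1) and 139 (113 to 168) CPM, a log2 ratio of 0.91, and *Irf4* at 95.9 (80.6 to 113) and 180 (150 to 213), also 0.91. These ratios were 0.57 and 0.39 with 10% or more immunoglobulin. Among thinned members *Prdm1* was found in 21.2% and 38.2%, but *Irf4* in 30.1% and 30.9%. Over all members *Irf4* had medians of 0.5 and 0 UMIs and 90th percentiles of 3 and 6.2. Its ratio thus reflects a minority of members with many UMIs. The B cell identity median was -0.48, with 17 of 20 below 0 and 4 called lower, *Cd72*, *Ighd*, *Siglecg* and *Bcl11a*, beside 1.89% of all genes called lower and 1.51% higher. The S phase median was -0.47 (23 of 23 below 0, 1 called) and the class switching and germinal center median -0.59 (9 of 9 below 0, 3 called lower), and with 10% or more immunoglobulin the S phase median was -0.08 over 16 genes and the other list kept 1 measured gene. Interferon-stimulated genes had a median of -0.28 with 0 of 19 called. In class-switched barcodes the same list had a median of -0.63 with 9 of 30 called lower, where of 8943 genes 0.928% were called higher and 1.11% lower (2.04% in all), and the difference between the classes was not tested.

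Proliferation genes were frequent in the members. After thinning, 74 of 113 PEP-WT members (65.5%, 56.0 to 74.2) and 31 of 55 PEP-619WW members (56.4%, 42.3 to 69.7) had a UMI of 2 or more of 25 G2 and M phase genes, a difference of -9.12 points (-24.5 to 6.17). Class-switched barcodes stood at 59.9% and 61.8% and thinned B cell barcodes, the deepest 465 of 3059 and 208 of 1036, at 49.9% and 48.6%. Thinned T cell barcodes were above the members, at 84.2% and 80.1%. Without thinning the shares were 78.7% and 69.2% of members and 28.8% and 34.4% of B cell barcodes. *Mki67*, a marker of dividing cells, was found in 50.4% and 54.5% of thinned members, against 41.1% and 43.7% of class-switched and 16.8% and 15.9% of B cell barcodes. Thinned T cell barcodes stood at 45.4% and 30.7% for *Mki67*. The difference from class-switched barcodes was 9.36 points (-0.574 to 19.2) and 10.8 points (-2.97 to 24.0), within counting error. The G2 and M share was 55.2% and 55.3% with 10% or more immunoglobulin.

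The antibody V genes of the members were compared last. The libraries read 3′ ends, so V segments were covered in part. A leading V gene was named in barcodes with 10 or more V gene UMIs of a locus, where it held 50% or more of them. The minimum of 10 applies to the locus, so the leading gene itself can have fewer UMIs. A kappa V gene (Igkv) could be named in 68 of 122 PEP-WT members (55.7%) and 39 of 65 PEP-619WW members (60.0%), and a heavy V gene (Ighv) in 32 (26.2%) and 19 (29.2%). Among class-switched barcodes a heavy V gene was named in 57.7% and 57.3%, which was 31.5 points (22.2 to 39.5) and 28.1 points (15.4 to 38.5) more. The germline ends of 5 V genes are shown, those of 4 whose use in the classes is compared below and of Igkv12-44, which is close to Igkv12-46. Each is the last 120 bases of the annotated transcript (GENCODE vM21, mm10), 5′ to 3′, with capitals from the codon of the conserved cysteine that opens the third complementarity-determining region. They are germline reference, not the mutated or joined sequence of any barcode.
Igkv12-46 (chr6:69764523-69765022, minus strand): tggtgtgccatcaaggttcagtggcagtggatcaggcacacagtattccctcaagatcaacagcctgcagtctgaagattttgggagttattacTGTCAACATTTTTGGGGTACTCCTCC
Igkv12-44 (chr6:69814631-69815154, minus strand): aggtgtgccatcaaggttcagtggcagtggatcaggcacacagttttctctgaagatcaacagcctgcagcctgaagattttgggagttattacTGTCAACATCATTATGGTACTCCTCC
Igkv3-2 (chr6:70698449-70699067, plus strand): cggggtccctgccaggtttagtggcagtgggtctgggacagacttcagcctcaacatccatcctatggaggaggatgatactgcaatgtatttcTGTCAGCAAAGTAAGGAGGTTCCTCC
Ighv1-82 (chr12:115952538-115953005, minus strand): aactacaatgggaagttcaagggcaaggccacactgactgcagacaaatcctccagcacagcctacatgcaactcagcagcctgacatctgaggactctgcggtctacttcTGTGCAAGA
Ighv6-6 (chr12:114434788-114435244, minus strand): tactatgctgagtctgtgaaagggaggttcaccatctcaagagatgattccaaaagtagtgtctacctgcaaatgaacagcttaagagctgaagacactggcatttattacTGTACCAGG

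IgM members used many V genes, and in PEP-WT the kappa gene that led among class-switched barcodes was less frequent among them. Igkv12-46 led in 43 of 414 class-switched PEP-WT barcodes (10.4%) and in 1 of 68 IgM members (1.47%), a difference of -8.92 points (-12.4 to -2.01). The gene was picked for its frequency in these same class-switched barcodes, and the interval does not allow for that choice or for barcodes of a shared clone. In PEP-619WW it led in 52 of 376 (13.8%) and in 3 of 39 (7.69%), a difference of -6.14 points (-12.5 to 6.87) that counting error covers. Igkv12-46 and Igkv12-44 match at 111 of 120 aligned bases (92.5%), so reads could be split between them and each is uncertain. Ighv1-82 led in 15.4% and 14.3% of class-switched barcodes and in 1 of 32 and 2 of 19 members, and both differences, -12.3 points (-17.1 to 0.729) and -3.76 points (-12.5 to 17.4), include 0.

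Other V genes were more frequent in members, each on few barcodes and picked as the most frequent of its library. Igkv3-2 led in 6 of 68 PEP-WT members (8.82%) against 2.90% of class-switched barcodes, and in 1 of 39 against 1.86% in PEP-619WW. Ighv6-6 led in 4 of 32 PEP-WT members (12.5%, 3.51 to 29.0) against 1.08%. In PEP-619WW it led in 0 of 19 (exact interval up to 17.6%, or 15.8% as 3 counts of 19) against 0.932%. Igkv1-135 led in 4 of 39 PEP-619WW members (10.3%) against 2.66%, and in 3 of 68 PEP-WT members (4.41%) against 2.66%, a difference of 1.75 points (-1.79 to 9.62). Different kappa genes numbered 35 among 68 and 23 among 39 members, and different heavy genes 22 among 32 and 17 among 19.

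Heavy and kappa V genes could be paired in 28 PEP-WT and 16 PEP-619WW members. These held 27 and 16 different pairs, and the single repeat was Ighv6-6 with Igkv3-2 in 2 PEP-WT members. Among class-switched barcodes, the 289 and 283 that could be paired held 199 and 200 different pairs, led by Ighv9-3 with Igkv12-46 in 19 and 18 barcodes. Larger sets hold more repeats by their size alone, and the difference in repeats was not tested.

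**Figure D5:**
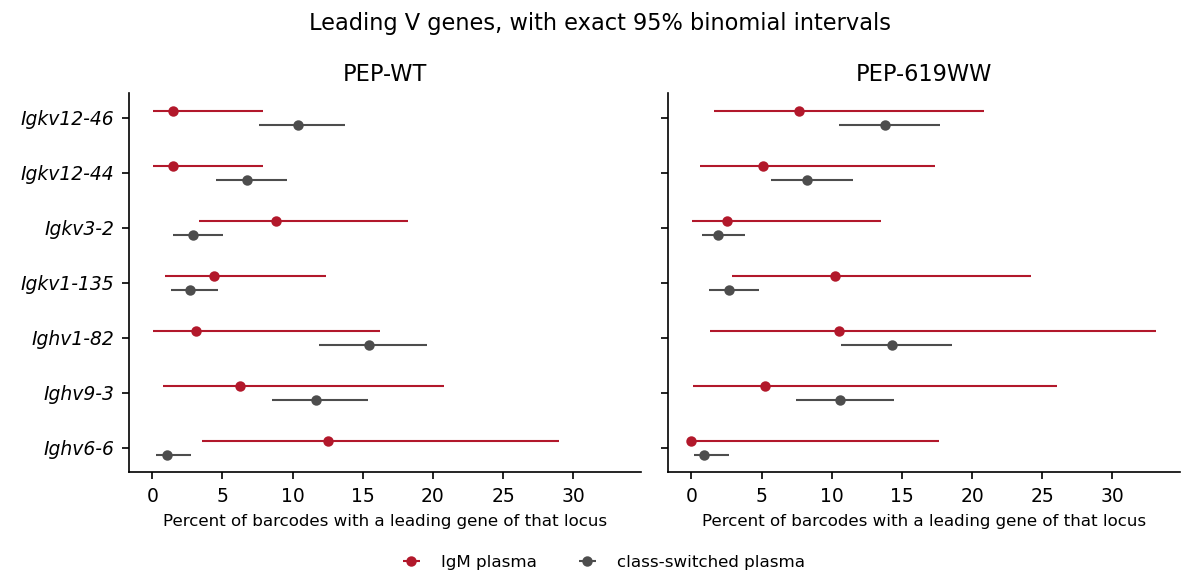
Share of barcodes led by each of 7 V genes (percent of barcodes with a named V gene of that locus), for IgM (red) and class-switched (gray) plasma, with exact 95% binomial intervals and a panel for each genotype. Igkv12-46 and Ighv1-82 lie lower in IgM than in class-switched plasma in both panels, with intervals that overlap in both, and Ighv6-6 and Igkv3-2 lie higher in IgM plasma in PEP-WT.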

How the data were processed

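Single-cell RNA-seq was made from 1 pooled spleen library per genotype. The authors aligned reads to mm10 with Cell Ranger (6.0.0 in the submitters' processing notes; the study's methods name another version) and deposited UMI counts per gene and barcode. Each genotype has 2 tables. Those of the other pair hold 9539 and 11029 barcodes, which equal the cell numbers in the study's methods, and hold 0 IgM plasma barcodes. The pair used here holds 14821 and 8576, and the sources used here do not say how the pairs relate.

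Counts of a group were summed and scaled to 1000000 non-immunoglobulin UMIs (CPM). Ratios carry exact conditional, sums exact Poisson, shares Clopper-Pearson and differences of shares Newcombe intervals at 95% (Python 3.11.15, scipy 1.17.1). A group at 0 was set to 3 counts for ratios. Scripts were tested on simulated data. No quality filter was applied in the main results. Scrublet (scanpy 1.11.5) called 1 and 0 doublets and so had not worked; barcodes in its top 5% of scores, with 4 and 2 members, were left out as an alternative. T cell barcodes had *Cd3e* and *Cd3g* and no *Cd79a* or *Lyz2*.

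Members, lists and rules were chosen with earlier results of these data known. Named genes were list members and the 15 largest ratios each way at 2-fold or more and 100 UMIs (in both genotypes for IgM against class-switched), and the 5 most frequent V genes. Alternatives were other gates, doublets, quality, scaling, weighting, UMI minimum and thinning.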

Additional observations from a re-analysis of the deposited data

Results flagged for a closer look

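Among genes with 100 or more UMIs in each library's comparison there were 5, all of them V segments, in which IgM members lay on opposite sides of class-switched barcodes in the 2 genotypes by 2-fold or more. These differences between genotypes were not tested. Ighv1-9 had log2 ratios of -4.70 in PEP-WT (2 member UMIs) and 1.60 in PEP-619WW (47 UMIs, 63.8% of them in 1 barcode). Ighv6-6 had 1.02 in PEP-WT (55 UMIs) and -1.93 in PEP-619WW, where members had 0 UMIs and the ratio is a bound from 3 counts. Igkv16-104 had 1.15 (65 UMIs, 44.6% in 1 barcode) and -4.81 (2 UMIs). Igkv3-10 had -3.20 (4 UMIs) and 2.19 (44 UMIs, 95.5% in 1 barcode). Igkv4-59 had 1.45 (38 UMIs) and, as a bound from 0 UMIs, -2.11.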

How the results depend on the processing

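Of the values for named genes, 617 kept direction and 2-fold call, 45 fell under 2-fold and 4 changed sign. Of list medians 704 moved by no more than a limit and 48 by more. The limit was the median distance from middle to end of the counting intervals of the list's single genes. An interval of the list median itself was not computed. The tallied genes were picked for the largest ratios in these same data. Between the classes they include *Ighm*, *Igha*, *Ighg1*, *Ighg2b*, *Ighg2c* and *Ighg3*, whose direction the rule fixes. The tally of named genes is therefore no measure of robustness. The sign changes, in PEP-619WW over PEP-WT, were *Ighg3*, at -2.14 with a 2-fold isotype margin and -0.10 without its highest barcodes, *Ighe*, at 0.48 without them (4 against 0 UMIs, a bound from 3 counts that shows no reversal), and *Mrto4*, at 0.064 with the mean of per-barcode shares. Calls for PEP-619WW over PEP-WT, and IgM over class-switched in PEP-WT and PEP-619WW, went from 155, 265 and 519 to 257, 471 and 968 with the mean of per-barcode shares, 23, 66 and 84 at 200 UMIs, and 2973, 4236 and 5421 with no filter, where fewer or more genes are tested. With 10% or more immunoglobulin the first was 74. Scaling to all UMIs moved the all-gene medians to -0.12, 0.21 and 0.08, and the split to 50 higher and 117 lower for the first (main 69 and 86) and 162 and 140 for the second (main 73 and 192).

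The genotype difference in immunoglobulin share, 5.31 points, was 5.75 with a stricter gate, 4.22 with a looser gate, 7.30 with the isotype margin and 5.15 without top Scrublet scores. With the mean of per-barcode shares the plasma cell identity median between genotypes was -0.045. With 10% or more immunoglobulin the ER chaperone median between genotypes was -0.11, and for IgM over class-switched in PEP-WT plasma cell identity was -0.0063, ER chaperones -0.059 and the germinal center list 0.12, with B cell identity at -0.21 in PEP-619WW. Under a looser gate ER chaperones were at -0.31 in PEP-WT and -0.23 in PEP-619WW, where plasma cell identity was -0.063. Scaled to all UMIs, plasma cell identity was 0.044 and ER chaperones 0.024 in PEP-WT. The cause of these shifts was not tested. The other deposited pair of tables gave no value, as it holds 0 members. No paired analysis was possible because each genotype is 1 pooled library and no replicate can be left out. Depth limits the receptors, with under 100 UMIs for *Fcmr* and *Tnfrsf17* in each set of members, and *Id2*, *Chac1* and *Ccr10*, with 1 to 12.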

Other observations

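Survival genes lay close between IgM and class-switched plasma barcodes, with medians of 0.01 (0 of 15 called) in PEP-WT and 0.06 (1 of 16 called higher) in PEP-619WW. Of all genes 3.39% were called in PEP-WT and 1.99% were called higher in PEP-619WW. *Mcl1*, which plasma cells need to survive, was at 479 and 419 CPM in members against 498 and 409. *Bcl2*, another inhibitor of cell death, had log2 ratios of 0.88 (0.26 to 1.48) and 0.57 (-0.41 to 1.43). Of the regulatory plasma cell list 6 of 14 genes had enough UMIs in either library. Its medians were -0.09 (0 called) and -0.18 (1 called higher and 1 lower, beside 1.99% and 4.68% of all genes, with 4 of 6 below 0). *Il10*, its best known cytokine, had 12 and 2 member UMIs, and was the gene called lower in PEP-619WW, with a log2 ratio of -1.60 (-4.68 to 0.33). *Cd200*, an inhibitory surface ligand, was called higher in PEP-619WW members, at 23.1 CPM against 5.65, on 17 UMIs.

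Interferon gamma-linked genes had medians of -0.15 (0 of 21 called) and -0.09 (2 higher and 1 lower of 21), and -0.05 between genotypes in members (0 of 18). Of all genes 3.39% were called in PEP-WT, 1.99% higher and 4.68% lower in PEP-619WW, and 3.4% between genotypes. The glycolysis and amino acid uptake list had medians of 0.21 and -0.13, and -0.28 between genotypes. There 1 of 16 genes was called, lower in PEP-619WW, beside 1.89% of all genes called lower. That gene was *Tpi1*, a glycolytic enzyme, at 164 CPM in PEP-WT and 74.8 in PEP-619WW members, and its log2 ratio of -1.13 (-1.58 to -0.70) became -0.52 with 10% or more immunoglobulin. *Slc3a2*, the heavy chain of amino acid transporters, was at 215 and 254 CPM. Proximal B cell receptor signaling genes had medians of 0.23 and 0.39, with 0 and 1 of 16 called, beside 3.39% and 6.67% of all genes.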
